A study of Mus musculus with 8 samples.

Results

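Oxytocin and vasopressin were examined together with their receptors in the medial prefrontal cortex (mPFC), a frontal cortical area, of adult male C3H/HeN mice. The 5 genes were chosen by symbol: the ligands Oxt and Avp and the receptors Oxtr, Avpr1a and Avpr1b. Each had 1 probe, among 55681 non-control probes standing for 34741 gene names, and 3 of the 5 passed the filter on dim signal. The MS group (maternal separation, labelled Stress, n = 4) was separated from the dam from postnatal day 2 to 14 while the dam herself was exposed to unpredictable stress, and the Ctrl group (n = 4) did not undergo this procedure. All 8 mice were weaned at postnatal day 21, and the study had put its mice through operant sessions for palatable food and then deprived them of food before they were killed. The comparison asks whether early-life stress changed gene expression in the adult mPFC. RNA of each mouse was hybridised to 1 single-colour Agilent array, and each mouse is called by its group and its labelled number (MS 7.1, Ctrl 8.4).

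Oxytocin and vasopressin are closely related short peptides. They are cut from larger precursors that also contain a carrier protein, neurophysin, and the neurons best known for making them lie in the paraventricular and supraoptic nuclei of the hypothalamus, which send axons to the posterior pituitary and to other brain areas. In the cortex the peptides act on receptors carried by local cells: Oxtr binds oxytocin, Avpr1a is the main vasopressin receptor of the brain, and Avpr1b is best known from the pituitary and hippocampal area CA2. All 3 receptors couple to the G protein Gq, which activates phospholipase C and releases calcium from internal stores.

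Oxt and Avp are neighbours on mouse chromosome 2, on opposite strands, with 0 genes between them in the RefSeq gene table. The 250 bases before each start are shown because these are the 2 members whose levels moved together between animals. They are from RefSeq on build GRCm38.p6, for Oxt chr2:130575919-130576168 on the plus strand and for Avp chr2:130582589-130582838 on the minus strand, each written 5′ to 3′ along its own gene. Capitals mark 2 motifs searched on both strands, AGGTCA (a hexamer bound by nuclear receptors) and CACGTG (an E-box bound by basic helix-loop-helix factors).
Oxt: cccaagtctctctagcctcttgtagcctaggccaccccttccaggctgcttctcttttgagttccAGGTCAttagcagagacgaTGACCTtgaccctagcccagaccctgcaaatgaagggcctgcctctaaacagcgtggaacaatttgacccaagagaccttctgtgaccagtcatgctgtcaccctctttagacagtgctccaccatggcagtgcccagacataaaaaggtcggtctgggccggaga
Avp: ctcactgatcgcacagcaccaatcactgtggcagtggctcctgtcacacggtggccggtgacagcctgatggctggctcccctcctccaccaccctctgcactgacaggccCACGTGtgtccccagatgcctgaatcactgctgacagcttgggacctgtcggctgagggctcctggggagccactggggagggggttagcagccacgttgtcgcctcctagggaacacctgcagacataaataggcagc
The Oxt window holds 2 matches to AGGTCA, starting 185 and 166 bases before the start, and 0 matches to CACGTG. The Avp window holds 1 match to CACGTG, 139 bases before the start, and 0 matches to AGGTCA. The other motif searched, TGACG (the core of the cAMP response element), has 0 matches in either window. Of 32851 upstream windows of this length in the table, 14.02% hold AGGTCA, 6.021% hold CACGTG and 17.77% hold TGACG. These 3 motifs do not overlap one another in the 2 windows, and a match is a description of the letters only.

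The array measured each ligand with 1 probe of 60 bases. The Avp probe is given whole and the Oxt probe by its first 30 bases, to show what was hybridised.
Avp probe: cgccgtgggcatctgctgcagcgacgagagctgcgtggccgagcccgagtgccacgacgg
Oxt probe: ctgagcccactttctgggaatacctttagc
The Avp probe lies at chr2:130406552-130406817 on build mm9, minus strand, and its coordinates span 266 bases. The Oxt probe lies at chr2:130402665-130402724 on mm9, plus strand, 3827 bases away. The probes share 0 words of 10 bases. The 2 genes carry closely similar neurophysin exons, and hybridisation of either probe to the other transcript was not tested. The Oxtr probe lies at chr6:112423686-112423745 (minus strand), the Avpr1a probe at chr10:121890135-121890194 (plus strand) and the Avpr1b probe at chr1:133508515-133508574 (plus strand), all on mm9. Which part of each gene these probes lie in was not analysed here.

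Levels are given on the log2 scale relative to the 75th percentile of the processed signal on that array, so that 0 is the 75th percentile itself and 1 unit is a doubling. Probes differ in brightness for reasons other than RNA, so levels of different genes are not set against each other. The 75th percentile itself ranged from 588 to 892 units, between 61.6% and 68.9% of probes were well above background on each array, and no spot was saturated. Every array measured the 10 cortical neuron markers well above background, and their summed signal was 75.5 to 84.2 times the 75th percentile in MS mice and 69.3 to 81.5 times in Ctrl mice. Ctrl 8.4 stood apart from the other arrays. The summed signal of 12 striatal projection neuron markers was 32.8 to 39.3 times the 75th percentile in MS mice, against 93.7 in Ctrl 8.4 and 32.1 to 38.0 in the other Ctrl mice. That of 8 olfactory bulb markers was 2.34 to 15.4 in MS mice, highest in MS 7.6, against 37.8 in Ctrl 8.4 and 2.18 to 10.5 in the other Ctrl mice. In these bulk samples, more cells of a type and more RNA per cell cannot be told apart. Of the striatal markers 11 were tested, with a median log2 fold change of -0.32 (-0.07 without Ctrl 8.4), lowest for Six3 at -0.86. Of the olfactory bulb markers 7 were tested, with a median of -0.81 (0.03 without Ctrl 8.4), lowest for Tbx21 at -0.97. None of them passed the test.

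Across the whole array, 0 of 34097 tested probes passed an adjusted p of 0.05 in limma (0% called), and 815 had an unadjusted p under 0.05 (406 with the higher level in MS and 409 with the lower). The values of the groups did not overlap for 486 of 34072 probes (1.43%). Among the 5 members, 0 passed the test and 0 had groups that did not overlap.

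Oxt was well above background on every array. Its level was -3.19, -1.36, -3.83 and -3.64 in MS 5.3, 7.1, 7.2 and 7.6, against -3.19, -1.17, -1.49 and -3.56 in Ctrl 6.2, 8.2, 8.4 and 8.5. MS 7.1, Ctrl 8.2 and Ctrl 8.4 were high, at 39.0%, 44.4% and 35.5% of their array's 75th percentile, and the remaining 5 mice lay between 7.01% and 11.0%, so the groups overlapped over nearly their whole range. The mean level was -3.01 ± 1.13 in MS and -2.35 ± 1.19 in Ctrl (SD, n = 4 each). The log2 fold change was -0.65 (SE 0.68, 95% confidence interval -2.21 to 0.90; limma, adjusted p = 0.9996), and the exact two-sided permutation test over the 70 labellings gave p = 0.371, where the smallest p possible is 0.0286. The interval is wide: on the linear scale it runs from 0.216 to 1.87 times the Ctrl level.

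Avp followed a similar order. Its level was -4.27, -1.26, -3.37 and -5.90 in MS 5.3, 7.1, 7.2 and 7.6, against -3.80, -0.89, -2.04 and -4.28 in Ctrl 6.2, 8.2, 8.4 and 8.5. The highest value of each group was again in MS 7.1 and in Ctrl 8.2, followed by Ctrl 8.4, while in MS 7.6 the probe was not well above background. The lowest level of any probe well above background on that array was -5.48. The mean level of Avp was -3.70 ± 1.93 in MS and -2.75 ± 1.57 in Ctrl (SD, n = 4 each). Its log2 fold change was -0.95 (SE 1.03, 95% confidence interval -3.30 to 1.40; limma, adjusted p = 0.9996; exact permutation p = 0.543). On the linear scale the interval runs from 0.102 to 2.64 times the Ctrl level. The mean, log2 fold change and interval use the MS 7.6 reading as it stands. Without that mouse the log2 fold change was -0.21.

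The size of the difference between the groups in both ligands changed with single animals, though it stayed below 0 when any 1 mouse was left out. Without MS 7.1 the log2 fold changes were -1.20 for Oxt and -1.76 for Avp. Without Ctrl 8.2 they were -0.26 and -0.33, and without Ctrl 8.4 -0.37 for Oxt and -0.71 for Avp. Leaving out MS 7.2 gave -0.38 and leaving out Ctrl 8.5 gave -1.06 for Oxt. Leaving out MS 7.6 gave -0.21 and leaving out Ctrl 8.5 gave -1.46 for Avp. The adjusted p stayed above the threshold in each of these fits. The 8 arrays lay in 2 rows of 1 slide, with 2 mice of each group in each row, and the sign of the difference changed between the rows. In row 1 the mean Oxt level was -2.27 in MS and -3.37 in Ctrl, a difference of 1.098, and in row 2 it was -3.74 in MS and -1.33 in Ctrl, a difference of -2.41. For Avp the difference was 1.27 in row 1 and -3.17 in row 2. Of the mice with high ligands, MS 7.1 lay in row 1, and Ctrl 8.2 and Ctrl 8.4 lay in row 2.

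Oxtr, the oxytocin receptor, was well above background on every array and differed less between mice than the ligands. Its level was 0.01, -0.38, 0.02 and -0.08 in MS 5.3, 7.1, 7.2 and 7.6, against -0.42, -0.17, 1.03 and 0.32 in Ctrl 6.2, 8.2, 8.4 and 8.5. Ctrl 8.4 was the highest and Ctrl 6.2 the lowest, so all 4 MS values lay inside the range of the Ctrl values. The mean level was -0.10 ± 0.19 in MS and 0.19 ± 0.64 in Ctrl (SD, n = 4 each), with a log2 fold change of -0.29 (SE 0.28, 95% confidence interval -0.94 to 0.35; limma, adjusted p = 0.9996; exact permutation p = 0.514). Without Ctrl 8.4, the mouse with the high striatal and olfactory bulb markers, the log2 fold change was -0.01, and without Ctrl 6.2 it was -0.50. The part of those markers in the Oxtr value of Ctrl 8.4 was not tested.

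Avpr1a, the vasopressin receptor of the brain, was mostly at background. It was well above background in MS 7.2, at -4.41, and in Ctrl 8.4, at -5.63. In the other mice it read -7.71, -6.78 and -7.06 in MS 5.3, 7.1 and 7.6, against -7.64, -7.54 and -6.48 in Ctrl 6.2, 8.2 and 8.5. Thus 1 of 4 MS mice and 1 of 4 Ctrl mice gave a measurable level, and the probe was not tested in the fit across all probes. Avpr1b was not well above background in any mouse. Its readings ran from -8.44 to -6.94 in MS and from -8.12 to -6.70 in Ctrl. On MS 7.2, Ctrl 8.4 and Ctrl 8.5 the scanner software had replaced the Avpr1b signal by a small positive stand-in value. No fold change is given for either of these receptors.

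**Figure D1:**
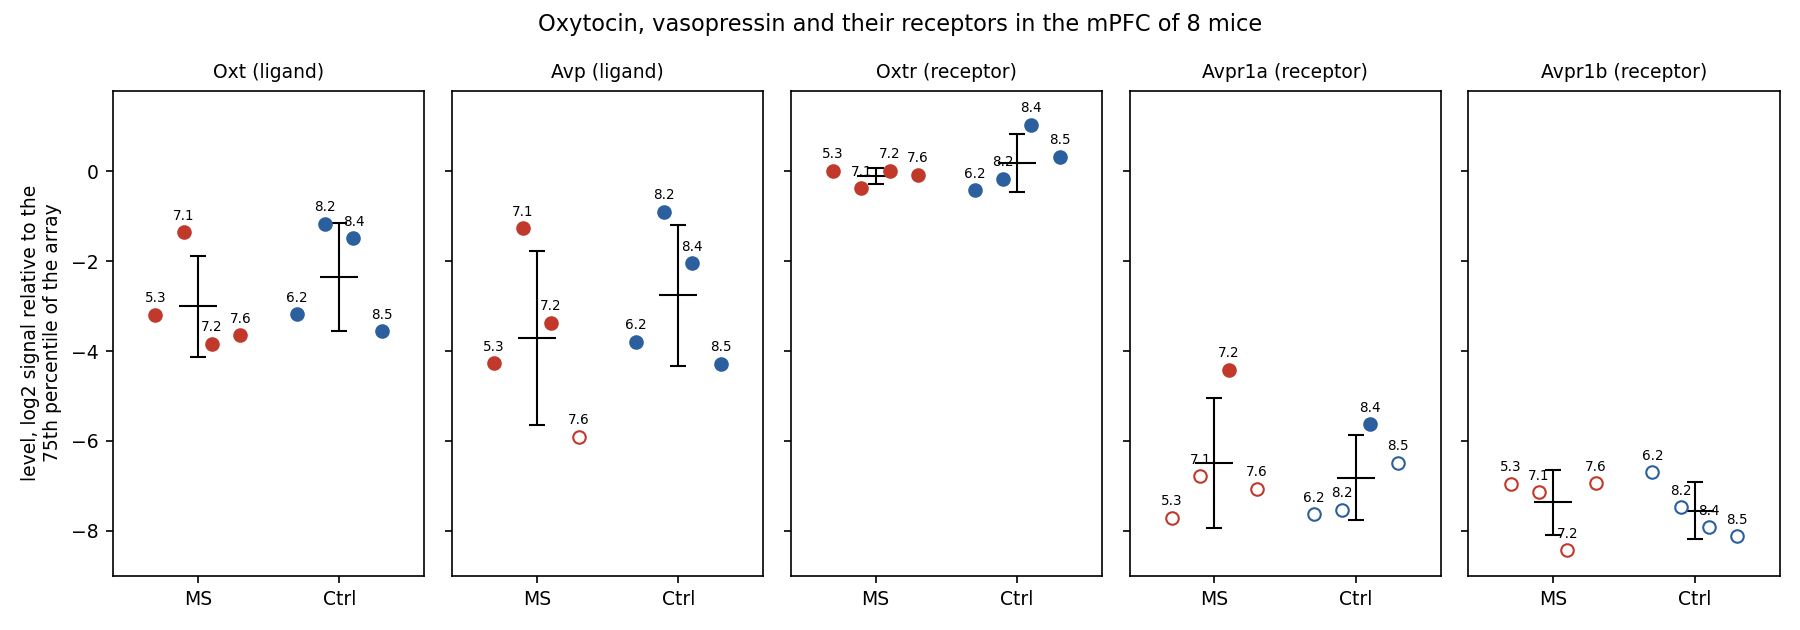
Level of each member in each mouse (log2 processed signal relative to the array's 75th percentile), MS mice in red on the left and Ctrl mice in blue on the right of each panel, with the label number beside each point; filled points are well above background, open points are not, and bars are the group mean ± SD (n = 4). Oxt and Avp are high in MS 7.1, Ctrl 8.2 and Ctrl 8.4, whereas Oxtr stands between -0.42 and 1.03 in all mice; heights in different panels come from different probes and cannot be compared.

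The ligands were among the most variable probes between animals. The SD within groups was 1.16 for Oxt and 1.76 for Avp, against a median of 0.174 over the tested probes, and 99.6% and 99.9% of tested probes had a smaller one. In all, 130 probes spread more than Oxt and 26 more than Avp. The Avp SD includes the reading of MS 7.6 (-5.90), which was not well above background. The SE of the log2 fold change, which grows with this spread, was 1.03 for Avp and 0.68 for Oxt. It was 0.53 and 0.44 with another background correction (normexp), and 0.67 and 0.54 in the authors' log2 table. Where the ligands rank in spread under these settings was not analysed. Wide spread was shared by genes of the tissue marker lists: the SD was 2.38 for Prl, 2.33 for Gh, 2.15 for Tbx21 and 1.91 for Trh, and 5 of 7 olfactory bulb, 2 of 3 pituitary, 1 of 8 hypothalamic and 1 of 4 choroid plexus and ependymal genes exceeded Oxt. Over the 17697 tested probes with a mean level in the same range (-5.90 to -0.89), the median SD was 0.234. Among 111 probes of that range that are spotted repeatedly, the SD between spots, averaged over the arrays, had a median of 0.106 and did not exceed 0.474. Outlier spots were left out of this SD, which can lower it. Each ligand has only 1 spot per array, so its own spot noise cannot be given, and spot noise leaves out labelling, hybridisation and dissection. Oxtr had an SD of 0.473, above that of 94.8% of tested probes. From the lowest to the highest mouse, Oxt differed 6.34-fold and Oxtr 2.75-fold. In MS 7.6 the Avp probe was not well above background. Avp differed 24.0-fold when its level in that mouse was set to -5.48. That is the lowest level of any probe well above background on that array, and the Avp level there could lie above or below it. Within MS mice the range was 5.56-fold for Oxt, 18.6-fold for Avp with the same setting and 1.31-fold for Oxtr. Within Ctrl mice, where each of these probes was well above background, it was 5.24-fold, 10.4-fold and 2.75-fold.

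Oxt and Avp varied together. Over the 8 mice their levels correlated at Pearson r = 0.887 and Spearman rho = 0.762, and r was 0.717 without Ctrl 8.2 and MS 7.1, which lie farthest from the median of Oxt. The mice fall into 3 with high and 5 with low Oxt, so the coefficient mainly reflects these 2 sets. The 2 probes share the array and its scaling, and the coefficient is a description. The difference between the Avp and the Oxt level still moved between mice: it was -1.08, 0.09, 0.47 and -2.26 in MS 5.3, 7.1, 7.2 and 7.6, against -0.61, 0.28, -0.55 and -0.72 in Ctrl 6.2, 8.2, 8.4 and 8.5. The value of MS 7.6 rests on an Avp reading that was not well above background; with the lowest level well above background on that array it was -1.84, still the lowest of the 8. Oxtr did not share this order. Its r was 0.122 with Oxt (rho = -0.381) and 0.033 with Avp (rho = -0.214). Of the 3 mice with high Oxt, MS 7.1 and Ctrl 8.2 had Oxtr levels of -0.38 and -0.17. Ctrl 8.4 had the highest Oxtr level of all mice, 1.03. The r of Oxtr with Oxt became 0.769 without MS 7.1 and Ctrl 8.2, so neither value is stable at this number of animals.

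**Figure D2:**
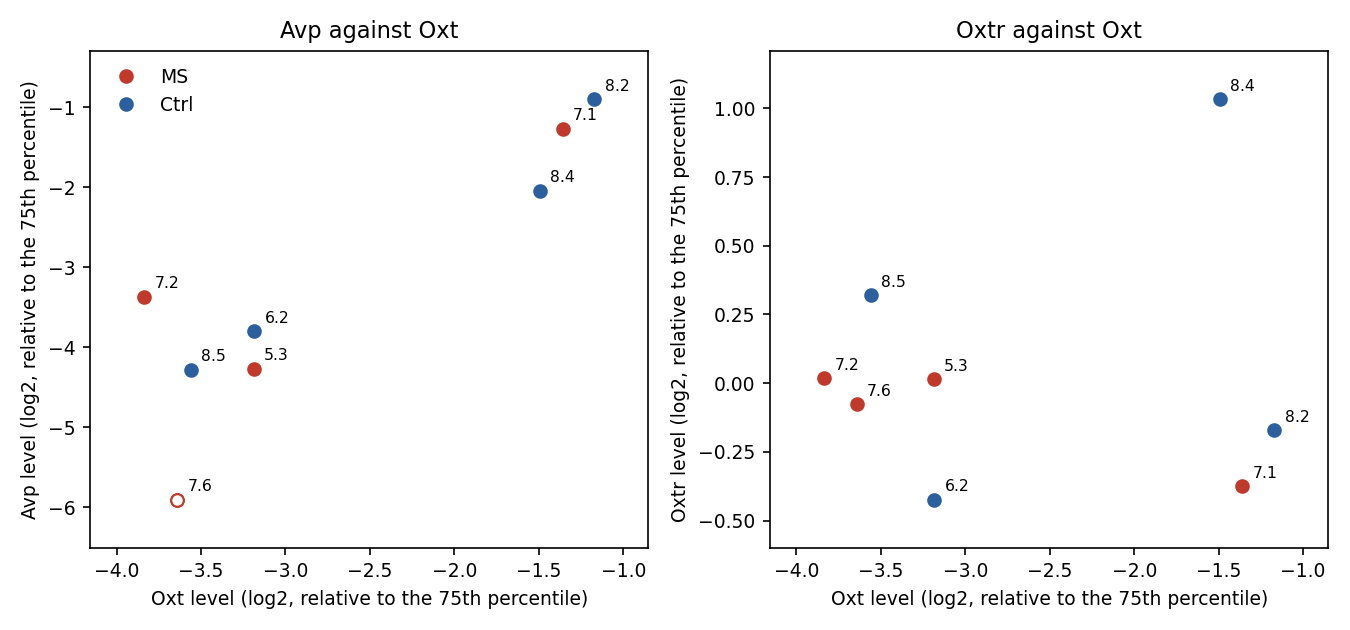
Avp (left) and Oxtr (right) level against the Oxt level in each mouse, all as log2 signal relative to the array's 75th percentile; MS mice are red, Ctrl mice blue, and the open point is not well above background for Avp. MS 7.1, Ctrl 8.2 and Ctrl 8.4 lie apart at the upper right for Avp (r = 0.887, 8 mice), and Oxtr shows no such order (r = 0.122).

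The mean level of the 2 ligands minus the level of Oxtr, the only receptor well above background throughout, was taken in each mouse. Only changes of this value between mice are read, since it joins different probes. It was -3.74, -0.94, -3.62 and -4.70 in MS 5.3, 7.1, 7.2 and 7.6, against -3.07, -0.86, -2.80 and -4.24 in Ctrl 6.2, 8.2, 8.4 and 8.5. The groups overlapped, no test was made, and the MS mean minus the Ctrl mean was -0.51. With all 3 receptors averaged, the difference was -0.87, but Avpr1a and Avpr1b bring mainly readings at background into that value. It was -0.44 with normexp background correction, between -1.59 (without MS 7.1) and -0.26 (without Ctrl 8.2) when single mice were left out, and 1.17 in slide row 1 and -2.92 in row 2.

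Because the best known Oxt and Avp neurons are hypothalamic, markers of hypothalamus and pituitary were read in the same arrays. Of 14 hypothalamic markers 8 were tested and 0 passed. Among the transcription factors of this list, Rax was well above background in 3 MS mice and 4 Ctrl mice. Nkx2-1, Six6, Hmx2 and Hmx3 were not well above background in any mouse. Sim1 and Otp, which specify the neurons of the paraventricular and supraoptic nuclei during development, also failed to rise well above background in any mouse. Hcrt, the precursor of the orexins of the lateral hypothalamus, was measurable on all arrays. Its level was -3.77, -1.77, -3.72 and -3.55 in MS 5.3, 7.1, 7.2 and 7.6, against -2.52, -2.25, -1.64 and -3.87 in Ctrl 6.2, 8.2, 8.4 and 8.5. MS 7.1, Ctrl 8.2 and Ctrl 8.4 were the 3 highest mice for Hcrt, as for Oxt, and its r was 0.888 with Oxt and 0.779 with Avp over the 8 mice. Pmch, the precursor of melanin-concentrating hormone, stood at -3.71, -2.76, -3.40 and -3.50 in MS 5.3, 7.1, 7.2 and 7.6, against -2.91, -2.28, -2.90 and -3.37 in Ctrl 6.2, 8.2, 8.4 and 8.5, with r of 0.831 and 0.842. MS 7.1, Ctrl 8.2 and Ctrl 8.4 were again the 3 highest mice, with Ctrl 6.2 close to Ctrl 8.4. The log2 fold change was -0.63 for Hcrt (-0.32 without Ctrl 8.4) and -0.48 for Pmch (-0.49 without Ctrl 8.4), and neither passed the test (limma, adjusted p = 0.9996).

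Other hypothalamic genes had a different order. Among the other tested markers, r with Oxt was -0.52 for Kiss1, -0.37 for Agrp and -0.35 for Pomc. It was 0.06 for Rax, 0.12 for Ghrh and 0.17 for Trh. The summed signal of the 14 markers was 1.90 to 5.60 times the 75th percentile in MS mice, highest in MS 7.6, and 2.57 to 7.33 times in Ctrl mice, highest in Ctrl 8.4. Trh, the precursor of thyrotropin-releasing hormone, led this order with 1.23 in MS 7.6 and 2.51 in Ctrl 8.4, the 2 mice that were also highest in olfactory bulb markers, and its log2 fold change of -0.86 was the lowest of the list but was 0.10 without Ctrl 8.4. Kiss1, the kisspeptin precursor, had the highest one, 0.51 (0.11 without Ctrl 8.4). Anterior pituitary markers stood highest in a mouse with low ligands. Prl (prolactin) and Gh (growth hormone) were at 0.83 and 0.38 in Ctrl 6.2. In the mice with high ligands they were at -1.41 and -1.62 in MS 7.1, the highest MS mouse, -1.79 and -2.13 in Ctrl 8.2, and -4.06 and -4.08 in Ctrl 8.4. Their r with Oxt was 0.38 and 0.39, and that of Lhb, the other tested pituitary gene, was -0.32. Of 8 pituitary genes 3 were tested and 0 passed, Lhb with the highest log2 fold change (0.19, and 0.04 without Ctrl 8.4) and Gh with the lowest (-0.87, and -1.23 without Ctrl 8.4), and the summed signal was 0.12 to 0.84 in MS and 0.09 to 3.78 in Ctrl. Pou1f1 was not well above background in any mouse. The part of any of these tissues in the Oxt and Avp levels was not tested.

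**Figure D3:**
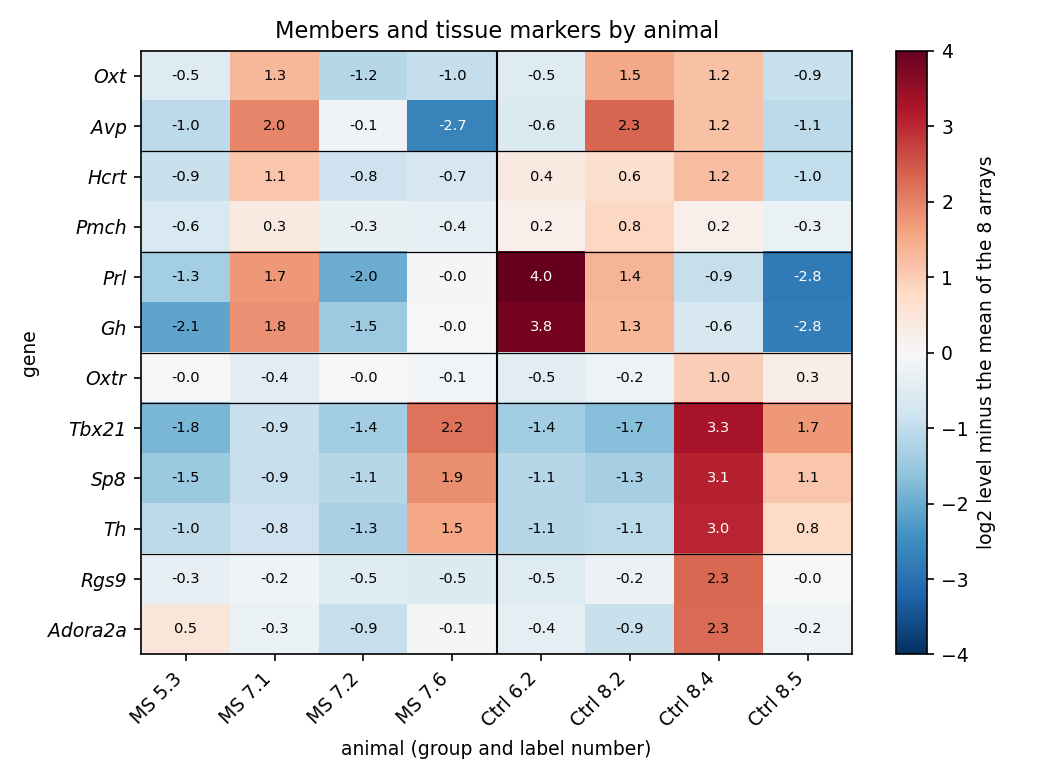
Level of 2 ligands, 2 hypothalamic peptides, 2 pituitary hormones, Oxtr, 3 olfactory bulb and 2 striatal markers (rows) in each mouse (columns, MS left of the line and Ctrl right of it), as log2 level minus the mean of the 8 arrays of that gene, red above and blue below the mean. Oxt, Avp, Hcrt and Pmch are red together in MS 7.1, Ctrl 8.2 and Ctrl 8.4 (Hcrt and Pmch also in Ctrl 6.2), Prl and Gh are highest in Ctrl 6.2, and the olfactory bulb markers are above their mean in MS 7.6, Ctrl 8.4 and Ctrl 8.5. The other tested hypothalamic markers, with r of at most 0.17 with Oxt, are not drawn.

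Genes around the receptors were read as further lists, and 0 of their genes passed the test. Of 5 other genes of peptide release, breakdown and reception, 4 were tested. Avpr2, the kidney vasopressin receptor, was not well above background in any mouse. Cd38, an ectoenzyme needed for oxytocin release in mice, had the lowest log2 fold change, -0.28, which was -0.01 without Ctrl 8.4. Its level was -2.98 to -2.71 in the MS mice, against -2.76, -2.76, -1.75 and -3.01 in Ctrl 6.2, 8.2, 8.4 and 8.5. Lnpep, the oxytocinase that cleaves both peptides, had the highest, 0.18 (0.11 without Ctrl 8.4). The transcription factors Arnt2 and Pou3f2, which act with or after Sim1 in the mouse hypothalamus and are also used in the cortex, had 0.17 and 0.33 (0.10 and 0.19 without Ctrl 8.4).

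Prohormone processing genes, whose products cut and store peptide precursors, were all measured on all arrays. Their log2 fold changes were above 0 for 9 of 9 genes, with a median of 0.13, while 54.9% of all tested probes were above 0 with a median of 0.01. None passed the test. Pam, the enzyme that amidates the end of both peptides, had the highest, 0.26 (0.10 without Ctrl 8.4), and the granule protein Scg2 the lowest, 0.02 (0.18 without Ctrl 8.4). The summed signal of this list was 590 to 649 times the 75th percentile in MS mice and 527 in Ctrl 8.4, its lowest value, and without Ctrl 8.4 the median was 0.07 and 8 of 9 genes were above 0.

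Below the receptors, the 14 genes of Gq signalling had 9 log2 fold changes above 0 and 5 below, with a median of 0.05. Gnaq, the Gq alpha subunit, had the highest, 0.23 (0.10 without Ctrl 8.4), and the protein kinase C gene Prkca the lowest, -0.19 (-0.02 without Ctrl 8.4). Of 8 genes that switch receptor signalling off, 5 were above 0 and 3 below, with a median of 0.04. Rgs4, which speeds up the turning off of Gq, had 0.32 (0.16 without Ctrl 8.4), and its relative Rgs2 had -0.10. Somatostatin interneurons, a class that carries Oxtr in mouse mPFC, were read through 6 markers, 5 of them tested, with log2 fold changes from -0.24 (Nos1) to -0.03 (Crhbp), a median of -0.11 and 0 past the test.

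**Figure D4:**
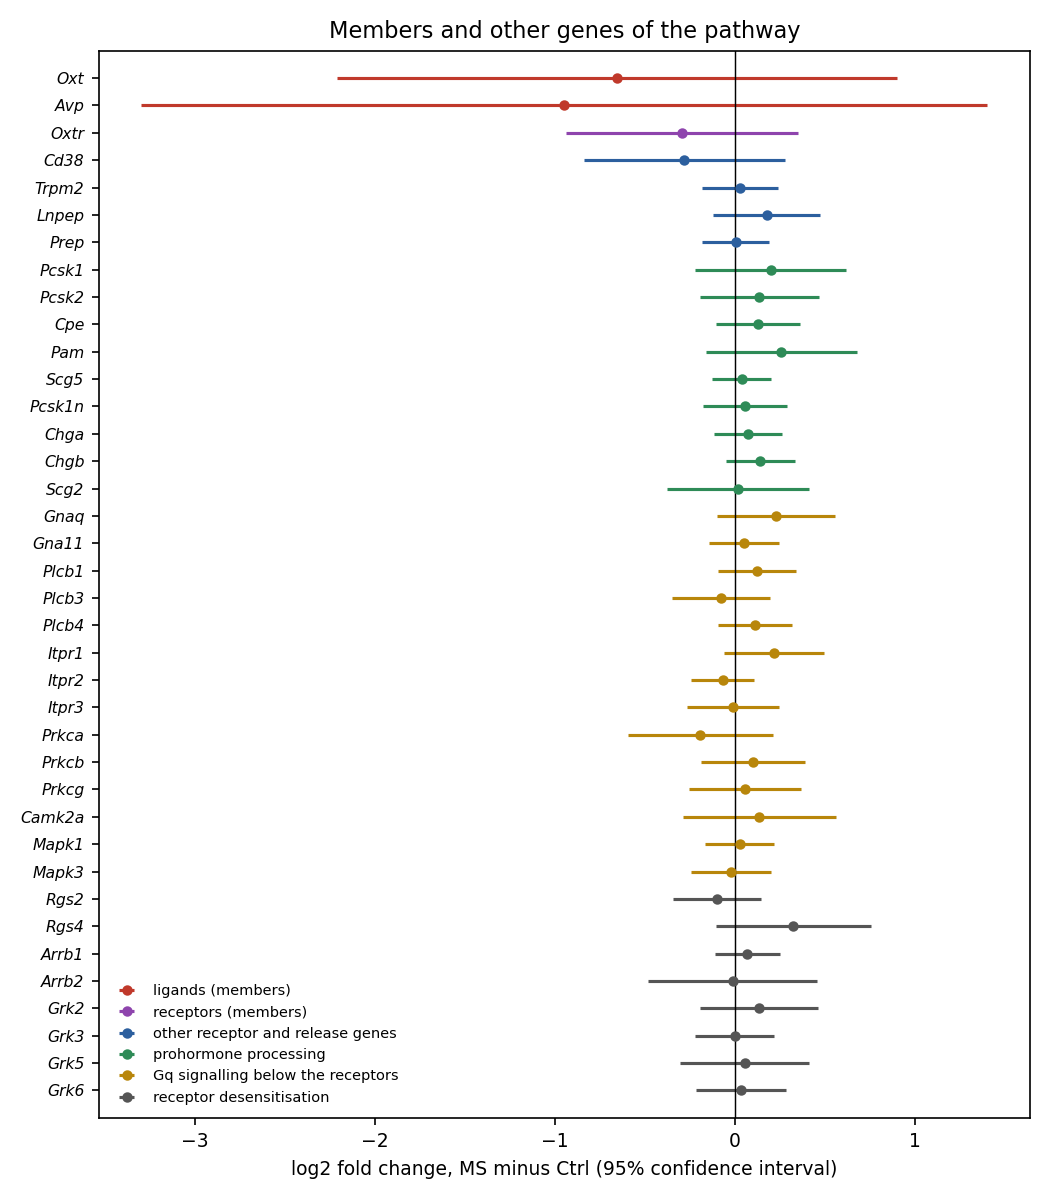
Log2 fold change of MS minus Ctrl with its 95% confidence interval (limma, n = 4 each) for the 3 tested members and the tested genes of 4 lists, coloured by list. The intervals of Oxt (-2.21 to 0.90) and Avp (-3.30 to 1.40) are far wider than those of the other genes, and 0 of the genes shown passed the test.

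The genes whose levels followed each tested member most closely over the 8 mice were taken from 15910 named genes measured on all arrays. For Oxt they were Yap1 (r = 0.911), 1700125H20Rik (0.904) and Tbl2 (0.901). For Avp they were Gkn3 (0.944), Atp10d (0.933) and Ttc30a2 (0.930). For Oxtr they were Sp4 (0.989), Nrsn2 (0.977) and Snhg5 (0.976). Without the 2 mice farthest from the member's median, r ran from 0.797 (Tbl2) to 0.990 (Ttc30a2). The log2 range of these 9 genes over all mice ran from 0.10 (Tbl2) to 1.36 (1700125H20Rik). These are the highest of 15910 coefficients over 8 mice and are a description only.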

How the data were processed

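RNA of the mPFC of 8 male mice (4 MS, 4 Ctrl) was measured with 1 array per mouse, from 200 ng total RNA labelled with Cy3. The file headers give array design 28005 and build mm9, whereas the methods name another design number. The deposited spot intensity was background-subtracted by the authors' scanner software (Agilent Feature Extraction 10.10.1.1) and not scaled between arrays. The deposited log2 table of the authors holds 34137 probes, Oxt, Avp and Oxtr among them. The correlation of each column with its own array's log2 median signal was at least 0.999895. Its columns differ by at most 0.018 at each percentile compared between the 1st and the 99th, as after quantile normalisation; neither labels nor methods state how it was normalised. The table was used as an alternative.

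Control and outlier spots were removed, spots of a probe were averaged, and each array's 75th percentile was subtracted. The fit took probes that the software called well above background in all 4 mice of either group (34097 probes, 23434 genes). limma 3.58.1 (lmFit and eBayes, two-sided, Benjamini-Hochberg at 0.05) in R 4.3.3 (statmod 1.5.0, data.table version 1.17.8) was used with no covariate and was tested on simulated data. The study's methods name lmFit, contrasts between conditions and this adjustment, and no covariate. They do not name eBayes, the 75th percentile scaling or this filter. Alternatives changed the background correction, scaling, filter, blocks, variance model and each animal. Python 3.11.15, pandas 2.3.3, numpy 2.4.6 and matplotlib 3.10.9 were used. Symbols came from the RefSeq table (GRCm38.p6) for 27235 probes by accession, 3581 by symbol and 565 by synonym, and from the files for 24300. For each list the genes with the highest and lowest log2 fold change are named, with Cd38, Lnpep, Avpr2 and tissue checks, and for each tested member the 3 most similar genes. A gene is represented by its brightest probe. The members and lists were chosen with earlier results of these data known.

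The 8 arrays shared 1 slide and 1 scan. The number before the point of a label is shared by 3 MS mice and by another 3 Ctrl mice, with no explanation in the labels or methods. Any litter or cage it stood for would not be accounted for by the p-values. Their precision is limited by 4 arrays per group.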

Additional observations from a re-analysis of the deposited data

Results flagged for a closer look

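Of 20 gap ratios computed (the highest and the lowest mouse of each group for each of the 5 members), 1 exceeded Dixon's 95% critical value for groups of 4. The Avpr1b reading of MS 7.2 lay apart below the other 3 MS mice, with a gap that was 0.864 of the group's range. Chance marks about 1 in 20 groups in this way. That reading is a stand-in value written by the scanner software, and Avpr1b was not well above background in any mouse, so the gap compares values that have no order.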

How the results depend on the processing

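In all 17 refits across the array, 0 probes and 0 genes of the pathway lists passed the threshold. The lowest adjusted p of any probe in limma was 0.393, with the label number as a random block (consensus correlation -0.22). No label number occurs in both groups, and with this negative correlation the SE of Oxt was 0.50, against 0.68 in the main fit. The block fit therefore cannot account for any litter or cage behind the label numbers. The log2 fold changes of Oxt, Avp and Oxtr were below 0 in every refit that gave one; the slide row block cannot move them, since each row holds 2 mice of each group. Leaving out 1 mouse gave -1.20 to -0.26 for Oxt, -1.76 to -0.21 for Avp, -0.50 to -0.01 for Oxtr and -1.59 to -0.26 for ligands minus receptors. Here ligands minus receptors averages all 3 receptors, of which Avpr1a and Avpr1b were mainly at background. The version with Oxtr alone was not taken through these alternatives. Background correction by normexp, which also adds an offset of 50, gave -0.45 for Oxt, -0.45 for Avp, -0.30 for Oxtr and -0.44 for ligands minus receptors. The authors' log2 table, which differs in background, normalisation and probe set, gave -0.50, -0.55 and -0.30 for the 3 genes. Which of these steps moved the ligands was not tested. Within slide row 1, an alternative chosen after seeing the data, the difference was 1.098 for Oxt, 1.27 for Avp and 1.17 for ligands minus receptors, and within row 2 it was -2.41, -3.17 and -2.92. Row 1 held MS 7.1 and row 2 held Ctrl 8.2 and Ctrl 8.4, the mice with high ligands. The cause of the change in sign was not tested. Avp has no value under the filter that requires all 8 arrays, and other probes of a member could not be tried because each has 1 probe. No paired analysis was possible because the groups share no replicate numbers.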
